A study of Mus musculus with 2 samples.

Results

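The genes described here encode 7 receptors for hematopoietic growth factors: Flt3, Kit, Csf1r, Csf2ra, Csf2rb, Csf2rb2 and Csf3r. They were named by symbol, with earlier results of these data known. Each was read from the probe set whose only gene symbol in the platform annotation is that name. All 7 had exactly 1 such probe set, out of 19938 genes named in this way. The cells were plasmacytoid dendritic cells (pDCs), the dendritic cells specialised in type I interferon production, sorted from mouse bone marrow as CD11b-negative cells positive for BST2 and B220. One sample came from chimeras rebuilt with Runx2-/- fetal liver cells, and the other came from chimeras rebuilt with wild-type fetal liver cells, both taken 2 months after reconstitution. Runx2 is a Runt-domain transcription factor, and loss of both copies is lethal at birth in mice, so adult blood cells without it are obtained through chimeras. Each genotype was measured on 1 Affymetrix Mouse Gene 1.0 ST array from 250 ng of total RNA, so the differences carry no error and no p-value, and nothing shows whether they would repeat. The number of mice behind each sample, and how many recipient cells remained in the marrow, are not given in the labels.

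Growth factor receptors carry the signals that keep blood progenitors alive, drive their division and steer them into lineages. Flt3, Kit and Csf1r are receptor tyrosine kinases of one structural class, each activated when its ligand brings a pair of receptors together. Csf2ra, Csf2rb, Csf2rb2 and Csf3r are cytokine receptor chains without a kinase of their own, and they signal through JAK kinases and STAT factors. In dendritic cell development FLT3 ligand is the main driver of pDC formation, whereas GM-CSF, which signals through Csf2ra with Csf2rb, favours conventional dendritic cells and restrains pDCs.

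The 3 kinase receptors were higher and 3 of the 4 cytokine receptor chains lower in Runx2-deficient pDCs than in wild-type pDCs. A split by receptor class was not tested. Kit was 2.92-fold higher, Csf1r 1.56-fold higher and Flt3 1.18-fold higher in Runx2-deficient pDCs. Csf2rb was 1.44-fold lower, Csf2rb2 1.40-fold lower and Csf2ra 1.27-fold lower, while Csf3r was 1.33-fold higher. At a threshold of 2-fold, set on the linear scale with no test, 1 of the 7 genes was higher and 0 were lower. Over all 19938 named genes, 0.436% passed that threshold in the higher direction and 0.647% in the lower direction in Runx2-deficient pDCs. At 1.5-fold, 2 receptor genes were higher and 0 lower, against 1.73% and 2.22% of all named genes. All 7 genes also passed a brightness filter, which asks for the median level of named genes on either array (log2 levels of 7.54 on the Runx2-deficient array and 7.61 on the wild-type array). Csf1r and Csf3r passed it only on the Runx2-deficient array, where they were higher. A comparison of their direction with other genes past the filter is therefore partly set by the filter. Among the 10337 genes past this filter, 0.793% lay beyond 2-fold on the higher side and 1.17% on the lower side, and at 1.5-fold the shares were 3.02% and 3.86%. The median log2 difference of the 7 genes was 0.24, against -0.033 over all named genes and -0.014 over those past the filter. With 1 array per genotype, and in RNA of a sorted population, fewer cells of a type and less RNA per cell cannot be told apart.

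**Figure D1:**
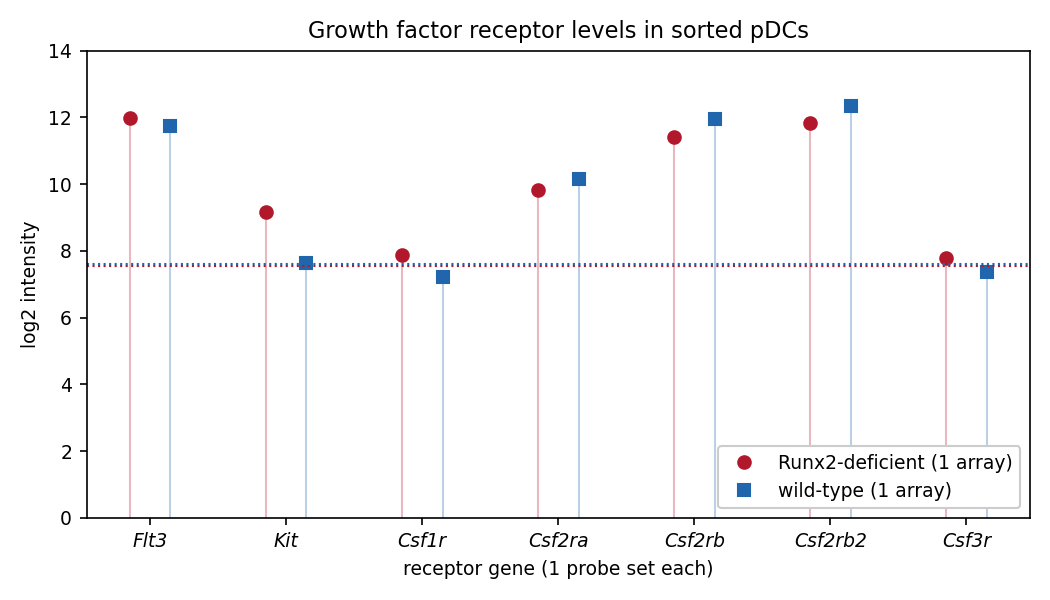
Log2 intensity (vertical axis) of the 7 receptor genes on the Runx2-deficient array (red circles) and the wild-type array (blue squares), 1 array each, with dotted lines at the median of all named genes on each array. Kit shows the widest gap, at 9.18 against 7.63, and the 3 genes with lower Runx2-deficient levels are Csf2ra, Csf2rb and Csf2rb2; heights of different genes come from different probes and are not comparable.

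To show what lies ahead of these genes, the 250 bases before the annotated start are given for 4 of them. These are the kinase receptors Kit and Flt3, which were higher in Runx2-deficient pDCs, and the cytokine receptor chains Csf2ra and Csf2rb2, which were lower. The window of Csf3r, a cytokine receptor chain that was higher, is not printed, so the 4 examples do not tie class to direction. The sequences are from RefSeq, build GRCm38.p6, read 5′ to 3′ on the gene's own strand. Kit lies on the plus strand at chr5:75574737-75574986, Flt3 on the minus strand at chr5:147400490-147400739, Csf2ra on the minus strand at chr19:61228419-61228668 and Csf2rb2 on the minus strand at chr15:78305722-78305971. Capitals mark a match to the Runx core (TGTGGT or TGCGGT, either strand) or to the E-box CANNTG, which E proteins such as the pDC factor Tcf4 bind.
Kit: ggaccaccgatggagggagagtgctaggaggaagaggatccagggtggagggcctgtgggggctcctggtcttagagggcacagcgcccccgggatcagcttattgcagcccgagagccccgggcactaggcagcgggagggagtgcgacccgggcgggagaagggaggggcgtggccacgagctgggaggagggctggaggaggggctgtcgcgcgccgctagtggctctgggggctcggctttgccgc
Flt3: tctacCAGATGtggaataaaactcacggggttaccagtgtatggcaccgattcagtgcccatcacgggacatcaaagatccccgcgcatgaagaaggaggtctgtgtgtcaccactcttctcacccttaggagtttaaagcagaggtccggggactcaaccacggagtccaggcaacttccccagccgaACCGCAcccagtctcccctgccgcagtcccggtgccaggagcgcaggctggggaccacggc
Csf2ra: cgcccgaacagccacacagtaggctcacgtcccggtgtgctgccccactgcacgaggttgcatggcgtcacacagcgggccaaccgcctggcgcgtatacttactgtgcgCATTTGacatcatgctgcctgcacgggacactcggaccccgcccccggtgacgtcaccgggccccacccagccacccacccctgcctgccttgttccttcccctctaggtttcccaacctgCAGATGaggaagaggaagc
Csf2rb2: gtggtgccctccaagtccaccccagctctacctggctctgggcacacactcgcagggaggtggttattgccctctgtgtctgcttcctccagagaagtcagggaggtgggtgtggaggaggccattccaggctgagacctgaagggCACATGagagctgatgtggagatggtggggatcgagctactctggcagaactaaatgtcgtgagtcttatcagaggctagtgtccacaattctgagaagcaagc

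Windows were searched for 5 of the 7 genes, the fifth being Csf3r on the plus strand of chromosome 4, and none was read here for Csf1r or Csf2rb. The Runx core was matched in 1 of these 5, Flt3, as ACCGCA, the reverse strand of TGCGGT, with its first base 61 bases before the start. Over the windows of 27025 genes 18.7% held a match. E-boxes were matched in 3 of the 5, Flt3, Csf2ra and Csf2rb2, against 66.0% of all windows. The Flt3 window also held the Ets core GGAAGT on its reverse strand, 75 bases before the start, and the other 4 did not, against 20.0% of all windows. The GATA core AGATAA was in 0 of the 5 and in 10.3% of all windows. The marked matches do not overlap. The Kit window had no match to any of these 4 motifs and a G and C content of 70.8%, against 59.2% for Flt3 and 56.4% for Csf2rb2. These are letter matches in a short window and not measured binding.

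Kit encodes the receptor for stem cell factor, which marks hematopoietic progenitors and mast cells. Kit was at 579 intensity units in Runx2-deficient pDCs and at 198 in wild-type pDCs, or 9.18 and 7.63 on the log2 scale, a log2 difference of 1.55. The wild-type level lay just above the filter level of that array and the Runx2-deficient level well above its own, so the fold rests on a dim wild-type value. Kit included, 24 of the 10337 genes past the filter had a difference this high. Among the 500 genes nearest to Kit in mean level the central 95% of differences ran from -0.64 to 0.73, and 0.20% reached that of Kit.

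Flt3 encodes the receptor for FLT3 ligand and is carried by dendritic cell progenitors and by mature pDCs. Its level was 4045 intensity units in Runx2-deficient pDCs against 3424 in wild-type pDCs, a log2 difference of 0.24, which was matched or passed by 14.8% of the 500 genes nearest to it in mean level. The log2 differences of Kit and Flt3 were 1.31 apart on the same arrays.

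Csf1r encodes the receptor for M-CSF and IL-34, the growth factors of monocytes and macrophages. It stood at 233 intensity units in Runx2-deficient pDCs and 149.5 in wild-type pDCs, a log2 difference of 0.64. The Runx2-deficient value was above the filter level of its array and the wild-type value below that of its own. Of the 500 genes nearest in mean level 0.80% had a difference as high. The gene table used for names also lists a Csf1r pseudogene, and whether probes of Csf1r match it was not tested.

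Csf2ra encodes the chain that binds GM-CSF, and Csf2rb encodes the common beta chain that completes the receptors for GM-CSF, IL-3 and IL-5. Csf2ra was at 899 intensity units in Runx2-deficient pDCs and at 1140 in wild-type pDCs, a log2 difference of -0.34. Csf2rb was at 2730 in Runx2-deficient pDCs and at 3936 in wild-type pDCs, a difference of -0.53. Csf2rb2, which encodes a second beta chain of the mouse that serves IL-3 alone, was at 3686 in Runx2-deficient pDCs and at 5149 in wild-type pDCs, a difference of -0.48. All 3 were bright on both arrays, and all 3 were below 0, against 51.9% of the genes past the filter. Each value lay inside the central 95% of the 500 genes nearest to it in level, whose lower ends were -0.76 for Csf2ra, -0.59 for Csf2rb and -0.62 for Csf2rb2. Differences as low were seen in 12.6%, 3.80% and 4.80% of those genes.

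The beta chain genes are close relatives in sequence and lie next to each other in the RefSeq gene order. Their differences were 0.045 apart on the log2 scale. Whether probes of one gene also detect the other was not tested, so they are not counted as independent observations. Ncf4, the gene on the other side of Csf2rb2, which encodes a subunit of the phagocyte oxidase, had a log2 difference of 0.18, at 550 intensity units in Runx2-deficient pDCs and 484 in wild-type pDCs.

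Csf3r encodes the receptor for G-CSF, the growth factor of neutrophils. Its level was 219 intensity units in Runx2-deficient pDCs and 165 in wild-type pDCs, a log2 difference of 0.41, with the wild-type value below the filter level. That made it the 1 cytokine receptor chain of 4 above 0, where 47.8% of the genes past the filter lie. As Csf3r passed the filter only on the array where it was higher, the comparison with that share is partly set by the filter. Of the 500 genes nearest in mean level 3.40% were as high.

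**Figure D2:**
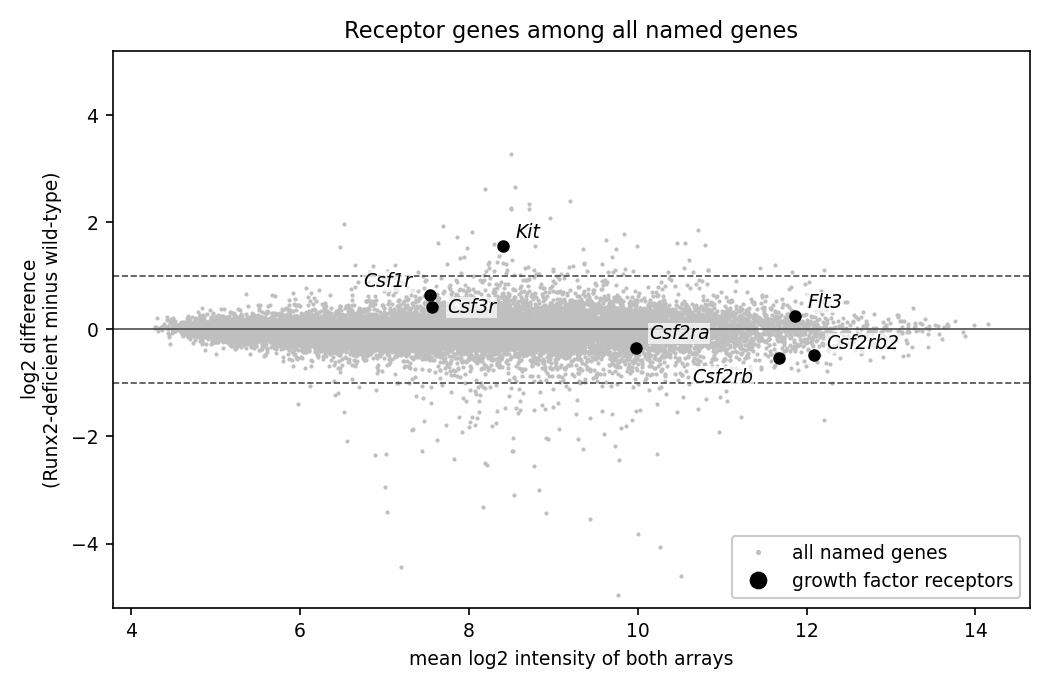
Log2 difference, Runx2-deficient minus wild-type (vertical axis), against the mean log2 intensity of both arrays (horizontal axis) for 19938 named genes in grey and the 7 receptor genes in black, with dashed lines at 2-fold. Kit, at 1.55, is the only receptor gene beyond a dashed line.

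The ligands of these receptors were mostly dim in the sorted cells. Of 8 ligand genes 2 passed the filter, Flt3l and Csf1, and 0 were 2-fold apart in either direction. Flt3l, which encodes the ligand of Flt3, was at 703 intensity units in Runx2-deficient pDCs and at 384 in wild-type pDCs, 1.83-fold higher, a log2 difference of 0.87. Only 1.40% of the 500 genes nearest to Flt3l in mean level were as high. Csf1, the gene of M-CSF, was at 192 in Runx2-deficient pDCs and 162 in wild-type pDCs, a difference of 0.24. It passed the filter only on the Runx2-deficient array, where it was higher. The genes of stem cell factor (Kitl), IL-34 (Il34), GM-CSF (Csf2), G-CSF (Csf3), IL-3 (Il3) and IL-5 (Il5) were below the filter on both arrays, with log2 differences from -0.25 (Il5) to 0.06 (Csf2). FLT3 ligand and Flt3 were the 1 pair of ligand and receptor at or above the filter level on both arrays.

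Of the other receptors related by structure or by a shared beta chain, 1 of the 5 measured was past the filter. Il3ra, the alpha chain of the IL-3 receptor and a known surface marker of human pDCs, was at 549 intensity units in Runx2-deficient pDCs and at 624 in wild-type pDCs, a log2 difference of -0.19. The other 4 measured genes of this group were below the filter on both arrays: Il5ra at -0.10, the kinase receptors Pdgfra at -0.13 and Pdgfrb at -0.03, and the erythropoietin receptor Epor at -0.40. All 5 were below 0, as were 11299 of the 19938 named genes. At 1.5-fold 0 of them were apart, against 1.73% (higher) and 2.22% (lower) of all named genes, so this count is near the background. Pdgfrb was above 0 after median centring of each array (0.048) and after removal of a loess trend (0.050). Pdgfra and Kdr, the VEGF receptor gene, flank Kit in the gene order. Kdr was at 316 intensity units in Runx2-deficient pDCs and at 189 in wild-type pDCs, 1.67-fold higher, a log2 difference of 0.74. Kdr and Ncf4 were looked up for their position after the values of the receptors were known.

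Of the genes that relay the receptor signal 0 were 1.5-fold apart, a distance that 3.02% (higher) and 3.86% (lower) of the genes past the filter reached, so a count of 0 among so few is near the background. The 6 measured JAK and STAT genes ran from -0.28 for the kinase gene Tyk2 to 0.16 for Stat3, the factor that FLT3 ligand activates in dendritic cell progenitors, and their median was 0.04. Jak2, the kinase bound to the common beta chain, was at 1433 intensity units in Runx2-deficient pDCs and 1414 in wild-type pDCs, and is named for that role after its value was seen. Of 18 proximal signalling genes, such as adaptors, lipid kinases and phosphatases, 13 were below 0, and the median was -0.14. All 18 were past the filter, where 51.9% of genes lay below 0. Vav1, Crkl and Ptpn6 were above 0 after median centring of each array (0.002, 0.058 and 0.075). The adaptor gene Grap was lowest, at -0.51, and Sos1, a Ras activator, highest, at 0.17. The kinase gene Fes (-0.38), the adaptor genes Sh2b3 (-0.37) and Shc1 (-0.36) and the ubiquitin ligase gene Cblb (-0.36), picked after their values were seen, were at least as far below 0 as Csf2ra.

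Feedback inhibitors and gene regulators included the pathway's lowest values. Of 10 feedback inhibitor genes, 1 was at least 1.5-fold lower and 0 higher, against 2.22% and 1.73% of all named genes. Dusp5, a phosphatase that inactivates ERK and is induced by it, was at 473 intensity units in Runx2-deficient pDCs and at 835 in wild-type pDCs, 1.77-fold lower. Its relative Dusp6, named after its value was seen, was at 363 in Runx2-deficient pDCs and 537 in wild-type pDCs, a log2 difference of -0.56. Socs2, a STAT5 target, was furthest in the other direction, at 0.19 on its brighter probe set and 0.22 on the other, both dim. The list's median was -0.01. Of 12 genes for factors known to control these receptor genes 0 were 1.5-fold apart, 8 were below 0 and the median was -0.27. Over all 19938 named genes 11299 were below 0, and the median was -0.033. Lmo2, a cofactor of the progenitor complex that includes Tal1 and Gata2, was lowest at -0.57, with 733 intensity units in Runx2-deficient pDCs and 1085 in wild-type pDCs. Runx1, the relative of Runx2 needed for blood stem cell formation, was highest at 0.47, with 3137 in Runx2-deficient pDCs and 2266 in wild-type pDCs. Spi1, which encodes the myeloid factor PU.1 and was picked after its value was seen, was at 726 in Runx2-deficient pDCs and 1022 in wild-type pDCs, a difference of -0.49.

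**Figure D3:**
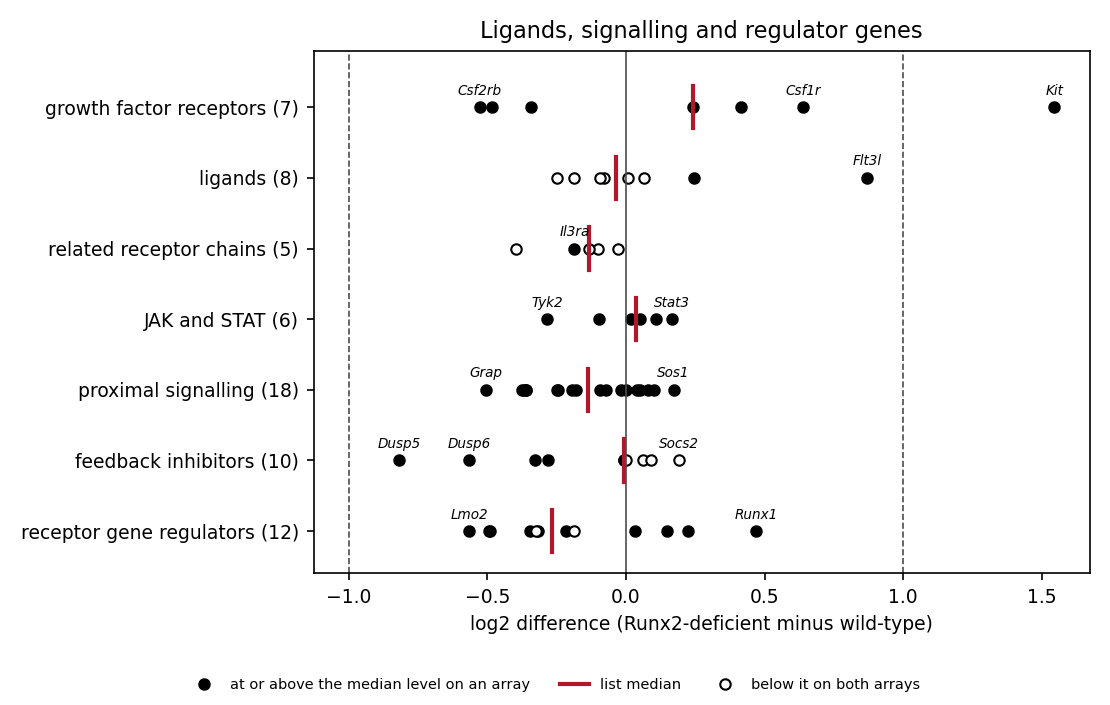
Log2 difference, Runx2-deficient minus wild-type (horizontal axis), of each measured gene in 7 lists, with the number of genes in brackets, list medians in red and dashed lines at 2-fold; open circles are below the median of all named genes on both arrays. Kit is the only gene past a dashed line, and Flt3l (0.87) and Dusp5 (-0.82) come nearest to it among the others.

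The sorted cells carried pDC transcripts at high levels on both arrays. All 10 measured pDC markers were past the filter, with log2 levels from 9.02 to 13.55 in Runx2-deficient pDCs and from 9.77 to 13.48 in wild-type pDCs, and a median difference of -0.18. Of these 10, 7 were below 0, and 2 were at least 1.5-fold lower and 0 higher, the 2 being the inhibitory receptor gene Lag3 (-0.74) and the transcription factor gene Spib (-0.69). Among all genes past the filter 51.9% were below 0, and 3.86% were at least 1.5-fold lower and 3.02% higher. Runx2 itself was not analysed here, so the genotype labels were not checked on the targeted gene. Since Kit, Csf1r and Csf3r are also known in progenitors, mast cells, macrophages and neutrophils, the markers of those cells were read from the same arrays.

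Neutrophil markers were lower in Runx2-deficient pDCs. Of 10 genes for neutrophils and their precursors, 9 were at least 2-fold lower in Runx2-deficient pDCs and 0 higher. Over all named genes 0.647% were that much lower and 0.436% that much higher. Prtn3, Ltf, Camp, S100a8 and S100a9 passed the filter only on the wild-type array, where they were higher, and Cxcr2 passed on neither. The summed intensity of the 10 genes was 2058 units in Runx2-deficient pDCs and 17207 in wild-type pDCs. Ngp, a granule protein gene, was at 296 in Runx2-deficient pDCs and at 7231 in wild-type pDCs, a log2 difference of -4.61. Cells of this lineage carry Csf3r, which was 1.33-fold higher in Runx2-deficient pDCs, and also Csf2ra and Csf2rb, which were lower. Their part in the differences of these 3 receptor genes was not tested.

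Monocyte and macrophage markers went both ways beside the higher Csf1r. Of 8 genes 0 were at least 2-fold higher and 1 was lower, with summed intensities of 1973 units in Runx2-deficient pDCs and 2780 in wild-type pDCs. The lysozyme gene Lyz2, the largest term of both sums, was at 480 units in Runx2-deficient pDCs and 1440 in wild-type pDCs. Its log2 difference was -1.59. The complement gene C1qb was 1.85-fold higher, at 456 units in Runx2-deficient pDCs and 246 in wild-type pDCs. Of the 8 genes 5 were above 0 and 3 below, with C1qa at 0.39, C1qc at 0.19 and Cx3cr1 at -0.38. Cd14, Adgre1 and Fcgr1, which mark monocytes and macrophages, were below the filter on both arrays, with log2 differences from -0.18 to 0.03. Their part in the difference of Csf1r was not tested.

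Basophil and mast cell markers were dim beside the higher Kit. Of 9 genes 8 were below the filter on both arrays, 0 were 2-fold apart, and their summed intensity was 918 units in Runx2-deficient pDCs and 1151 in wild-type pDCs. The mast cell protease gene Cpa3, the 1 past the filter, had a log2 difference of -0.54. Cpa3 passed only on the wild-type array, where it was higher. The IgE receptor genes Fcer1a and Ms4a2 had 0.01 and -0.06. Differences in this list ran from -0.59 for Mcpt8, 1.51-fold lower, to 0.12 for Cd200r3, both below the filter on both arrays. The part of these cells in the difference of Kit was not tested. Progenitor markers differed by gene. Erg, a progenitor transcription factor, was 1.98-fold higher in Runx2-deficient pDCs, at 247 intensity units against 125 in wild-type pDCs. Erg passed the filter only on the Runx2-deficient array, so the fold rests on a dim wild-type value. Cd93 had a difference of 0.41, while Cd34, dim on both arrays, had -0.33. Hoxa9, which passed the filter only on the wild-type array, had -0.35. The summed intensity of the 7 measured progenitor markers was 2249 in Runx2-deficient pDCs and 1967 in wild-type pDCs, a median difference of 0.10, and their part in the difference of Kit was not tested.

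Conventional dendritic cells, which carry Flt3 and the GM-CSF receptor, had markers with differences from -0.30 to 0.17. Of 7 genes 0 were 1.5-fold apart, and their summed intensities were 15919 units in Runx2-deficient pDCs and 15673 in wild-type pDCs. The largest terms of both sums were Cd209a, at 6933 in Runx2-deficient pDCs and 6478 in wild-type pDCs, and then Clec9a. The sums therefore do not measure conventional dendritic cells alone. Sirpa, a surface receptor of these cells, was lowest, at 3073 in Runx2-deficient pDCs and 3788 in wild-type pDCs. The lineage factor gene Zbtb46 and the receptor gene Xcr1 were below the filter on both arrays, while Clec9a, which mouse pDCs also express, was at 4366 in Runx2-deficient pDCs and 3891 in wild-type pDCs. For eosinophils, which carry Il5ra and the common beta chain, the 3 markers had log2 differences from -0.80 to -0.22, with summed intensities of 449 units in Runx2-deficient pDCs and 644 in wild-type pDCs. Their part in the lower Csf2rb was not tested. Markers of T cells (3 genes) and NK cells (2 genes) were below the filter on both arrays, with 0 genes 2-fold apart. The 5 measured B cell markers, 3 of them below the filter on both arrays, had a median of -0.22. The 4 erythroid markers had one of -1.24, with Slc4a1 and Rhag at least 2-fold lower in Runx2-deficient pDCs. Of these 4, 3 were below the filter on both arrays, Rhag among them, and Slc4a1 passed only on the wild-type array, where it was higher.

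**Figure D4:**
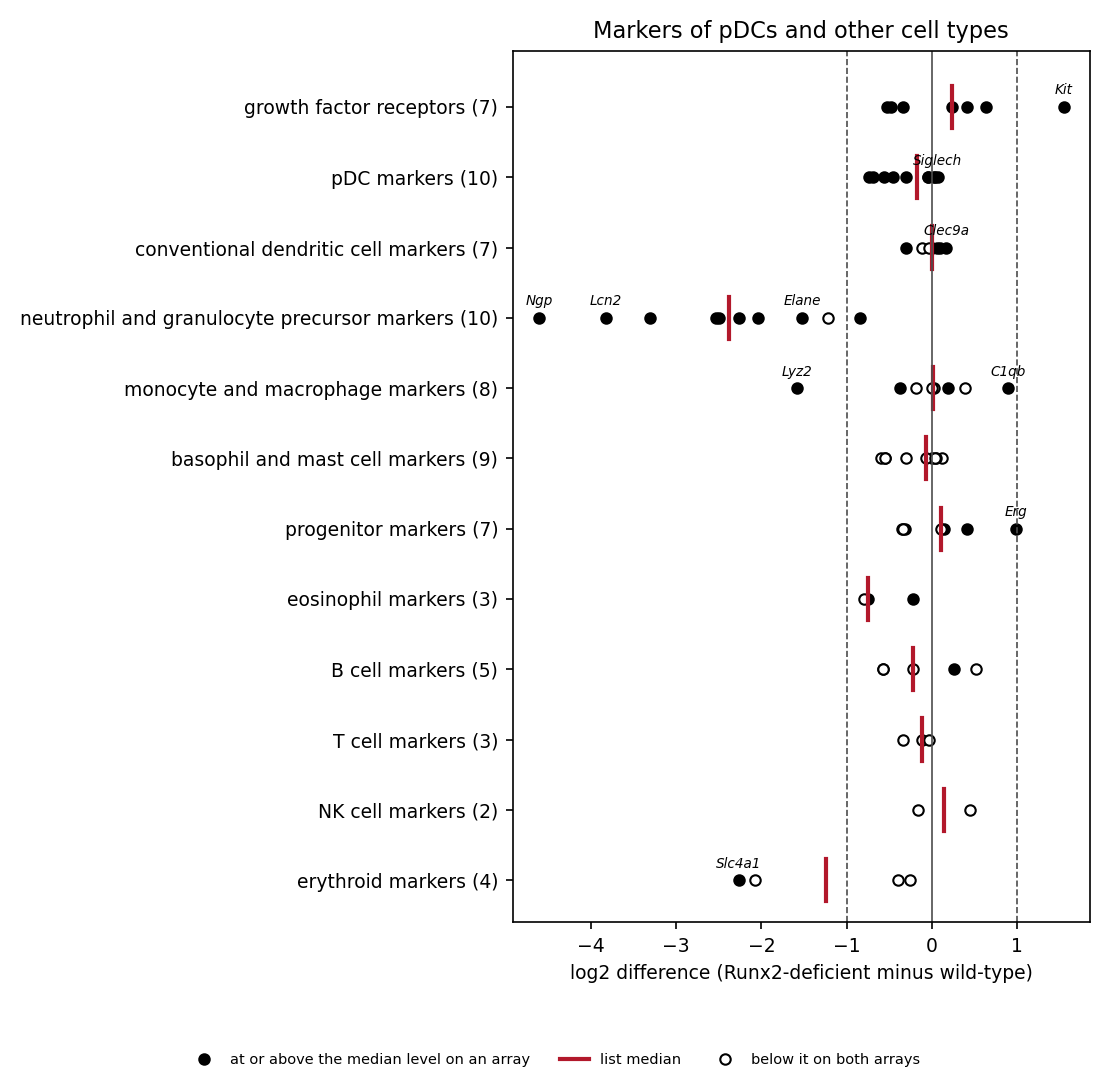
Log2 difference, Runx2-deficient minus wild-type (horizontal axis), of the 7 receptor genes and of marker genes for pDCs and 10 other cell types, with the number of measured genes in brackets, list medians in red and dashed lines at 2-fold; open circles are below the median of all named genes on both arrays. The neutrophil list (median -2.38) and the erythroid list (-1.24, with 3 of its 4 genes dim) sit to the left, and most basophil, mast cell, T cell and NK cell markers are dim.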

How the data were processed

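The deposited table holds 1 intensity per probe set and array on a linear scale, from 15.3 to 20364, with medians of 181.7 (Runx2-deficient) and 182.9 (wild-type). The authors used RMA per the submitters' processing notes; of its version, its annotation and the arrays normalised together, the sources used here say nothing. Among dim probe sets RMA understates differences, and the table has no detection call.

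Intensities were taken to log2 without a pseudocount, and differences are Runx2-deficient minus wild-type. Probe sets with 1 gene symbol were named (21789 of 35556; 1621 had several and 12146 none), and of a gene's several probe sets the brightest by mean log2 was used. Differences were set against 2-fold and 1.5-fold, with no test, since each group has 1 array. The number of arrays limits the precision. Scripts were tested on simulated data. The members, the 6 pathway lists and the 11 marker lists were chosen with earlier results of these data known. Named genes are the receptors, ligands and related receptors, and in other pathway lists those 1.5-fold apart and past the filter or, in a direction with none, the furthest; markers were named where they bear on a receptor. Genes without a single-symbol probe set were left out of the lists. Motifs were searched in 250 bases of RefSeq promoter sequence. Alternatives were median centring, loess (span 0.3), quantile normalization, log2(value + 32), the mean of probe sets, and other thresholds and filters. Tables were handled with pandas 2.3.3 and numpy 2.4.6 under Python 3.11.15, loess came from statsmodels 0.14.6, and figures were drawn with matplotlib 3.10.9.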

Additional observations from a re-analysis of the deposited data

How the results depend on the processing

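With no replicates, a difference was taken as moved when it changed by 0.1 or more on the log2 scale or crossed 2-fold, a limit set without knowledge of the replicate spread. Under median centring, loess, quantile normalization, a pseudocount of 32 and the mean of probe sets, 34 of 35 values of the 7 receptor genes moved by less, and 0 changed sign. The exception was Kit, at 1.41 on the log2(value + 32) scale, which adds the same amount to both arrays and so shrinks differences of dim genes. The mean of probe sets could not move the receptor genes, as each has 1 probe set. Median centring adds the same 0.076 to every gene, which is less than the limit. The count of values that stayed therefore partly follows from the choice of settings. Kit ran from 1.41 to 1.62, Csf1r from 0.54 to 0.71, Csf2rb from -0.54 to -0.45 and Csf2rb2 from -0.48 to -0.41. At 1.5-fold the receptor genes counted as higher numbered 2, the ligand genes 1, and the feedback inhibitor genes counted as lower 1. Combined with the other settings, a choice made after seeing the data, these counts changed for the receptors (1 with the pseudocount, without Csf1r), the feedback inhibitors (2 under quantile normalization, with Dusp6) and the receptor gene regulators (1 under loess and under quantile normalization, Lmo2). The medians of the ligand and feedback lists became positive under centring (0.040 and 0.068) and loess (0.0011 and 0.036). Socs3, whose probe sets differ in sign, had -0.28 on the brighter one and -0.075 as their mean. Erg reached 1.06 under centring and 1.07 under loess, past 2-fold, and Cxcr2 fell short of it with the pseudocount, at -0.89, which left 8 of the 10 neutrophil markers 2-fold lower. Of 620 values of the other named and listed genes 21 moved, and 0 of the 2-fold calls changed sign. For genes with 1 probe set the mean of probe sets again could not move a value. Centring could do so only by crossing 2-fold. Kdr and Ncf4 were added to these genes after seeing the data. Levels near the filter on the wild-type array limit the values of Csf1r, Csf3r and Kit. No paired analysis was possible because each group holds 1 array.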

Other observations

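Of the 19938 named genes 148 had exactly the same deposited value on both arrays. The growth factor feedback inhibitor gene Spry2 was one of these, at 83.7 intensity units in Runx2-deficient pDCs and in wild-type pDCs. None of the 7 receptor genes was among them.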
